A study of Mus musculus with 7 samples.

Results

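The clustered protocadherins are described here in mouse hippocampus with and without Khdrbs3. They were taken as every protein-coding record of the deposited gene table whose symbol begins with Pcdha, Pcdhb or Pcdhg. This gave 24 of 38924 records, of which 22572 are protein coding. All 24 lie on mm10 chromosome 18. They comprise 1 record for the alpha cluster, 22 single genes of the beta cluster (Pcdhb1 to Pcdhb22) and 1 record for the gamma cluster. In the exon-bin counts, which divide each gene into its non-overlapping exon pieces, they hold 49 of 359565 bins: 13 for alpha, 1 for each beta gene and 14 for gamma.

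Clustered protocadherins are transmembrane cadherin-family proteins of neurons that bind the same isoform on a facing membrane. Neurons choose among many isoforms, and the combination on a cell's surface is thought to let its own branches recognise and avoid each other. In the alpha and gamma clusters each variable first exon has its own promoter and codes for the extracellular, membrane and near-membrane parts. It is spliced to 3 constant exons that give every isoform of the cluster the same cytoplasmic end. Beta genes have no constant exons, and each codes for a whole protein in a single exon. The architectural protein CTCF and the cohesin ring bring a distant enhancer to the chosen promoters, and DNA methylation holds others silent. The C-type isoforms, at the far end of the alpha and gamma clusters, are chosen less randomly than the others.

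Polyadenylated RNA of adult mice was sequenced from 3 groups. The first was Ammon's horn, which holds the CA fields of pyramidal neurons, from wild-type mice (3 libraries). The second was the same tissue from knockout mice with null alleles at both copies of Khdrbs3, the gene of the RNA-binding splicing regulator T-STAR (3 libraries). The third was wild-type dentate gyrus, the field of granule neurons (1 library, no replicate). For all 3 groups the labels give a C57Bl6 background, onto which the Tstar null allele was bred over 8 generations. Whether libraries are separate animals is not stated, so p-values measure the spread between libraries, which may be technical. They address whether loss of this splicing regulator changes hippocampal RNA and how the neighbouring field differs.

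Libraries held 50230733 to 67692326 counts in the gene table and 29698245 to 39904606 in the exon bins. Exon bin 2 of Khdrbs3 had 808, 1103 and 964 reads in the wild-type Ammon's horn libraries, 6, 9 and 7 in knockout libraries and 506 in dentate gyrus. The whole-span count of Khdrbs3 was not lower in the knockout, at 199 ± 3.23 CPM against 139.7 ± 4.59 CPM (SD, n = 3 each). The reads therefore show loss of bin 2 and not of the whole gene. Prox1, which defines granule cells, was at 18.9 to 27.9 CPM over the wild-type Ammon's horn libraries and 209.9 CPM in the dentate gyrus. Fibcd1, a CA1 marker, was at 203 to 232 CPM against 19.6 CPM. Choroid plexus markers varied between libraries of 1 group: their summed level was 134 to 314 CPM in wild type, 142 to 1155 CPM in knockout libraries and 440.2 CPM for dentate gyrus. Beta genes other than Pcdhb1 had 21 to 387 reads per library in the exon bins.

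The 2 multi-exon records hold many isoforms each. The alpha record carries the symbol Pcdha2 (ENSMUSG00000007440.8; 36930285 to 37187657, 257373 bases) but begins in the first exon of Pcdha1, by the GENCODE M21 annotation of the same genome build. The gamma record carries the symbol Pcdhga9 (ENSMUSG00000023036.8; 37674335 to 37841873, 167539 bases) and begins in the first exon of Pcdhga3. Both end in the last constant exon. The C-type genes Pcdhac1, Pcdhac2, Pcdhgc3, Pcdhgc4 and Pcdhgc5 therefore have no record of their own, and no value is given for them. Rebuilding the bins from M21 transcripts gave 11 pieces where the alpha record has 13 bins, and 13 where the gamma record has 14. The bins of these records are accordingly named by number, from the start of the record, and their lengths are not given.

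Each gene-table count runs over the whole span with introns, so the exon bins are the closer measure of these transcripts. Bins held 39.8% of the gene-table count of the alpha record and 43.2% of that of the gamma record. The rest cannot be read as intron reads. Gene-table counts were also the higher in protein-coding genes made of 1 bin, by a median ratio of 2.03. Antisense genes lie inside both spans. The lincRNA Gm26672 had 2260 to 3506 counts per library, equal to 6.35% to 8.23% of the gamma record's counts, and Gm10545 had 2.43% to 3.24% of the alpha record's. Whether the authors' counting used strand is not given in the sources used here, so reads of these genes and of the protocadherins that face them cannot be told apart.

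Beta genes have no introns, yet their 2 counts differed. In 332 other protein-coding genes made of 1 bin, the median ratio of gene-table to exon-bin count was 2.03, with quartiles of 1.99 and 2.99. In 21 beta genes the ratio was 2.41 (Pcdhb2) to 4.93 (Pcdhb6), with a median of 3.06 and quartiles of 2.70 and 3.88. The 2 sets of genes thus overlap. Beta genes are close copies of each other. Of the 50-base words in their longest M21 transcripts, 1.80% (Pcdhb13) to 11.99% (Pcdhb12) also occurred in a transcript of another gene, with a median of 3.60%. Some of these transcripts are longer than the counted exon, as in Pcdhb14 with 8646 words beside 3438 counted bases. The shares therefore describe transcripts and not the counted exons. Pcdhb7 shared most with Pcdhb9, and Pcdhb6 with Pcdhb8. Over the 21 genes the ratio was higher where more words were shared (Spearman's rho 0.71, Pearson's r 0.72). This is a description, since the genes share libraries and sequence, and how the authors treated reads that fit several genes is not given in the sources used here. Beta values are uncertain to that extent. Below, both counts are given for the beta genes as a set, while several single genes are described from the exon bins only.

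**Figure D1:**
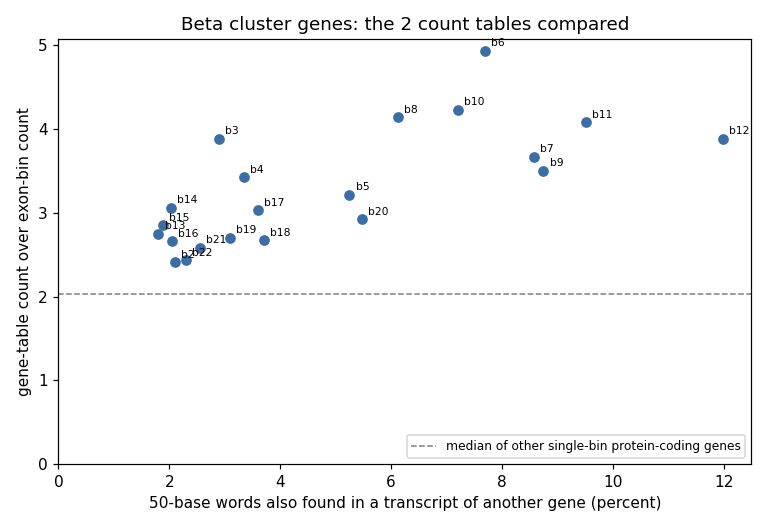
Gene-table count over exon-bin count, summed over the 7 libraries, for 21 beta genes. The x axis is the percent of 50-base words in the longest M21 transcript also found in transcripts of other genes. The dashed line is the median of 332 other single-bin protein-coding genes, whose upper quartile of 2.99 is not drawn. All 21 points lie above the line at 2.03, and Pcdhb6 is highest at 4.93.

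In wild-type Ammon's horn the gamma cluster gave the most exon-bin reads, at 499, 487 and 506 CPM in the 3 libraries. The alpha record gave 120.0, 115 and 126 CPM. All 22 beta genes together gave 74.7, 65.1 and 70.6 CPM. The 3 ranges do not overlap, but they are sums over different exonic lengths and numbers of isoforms, so they rank reads and not molecules.

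Among beta genes, levels per length in the exon bins ran over a wide range. Pcdhb9 was highest, at 2.66, 2.34 and 2.02 CPM per kb in the 3 wild-type libraries. Pcdhb17 followed at 2.45, 1.97 and 2.25 CPM per kb, within the spread of Pcdhb9. Pcdhb20 came next at a mean of 1.76 ± 0.134 CPM per kb (SD, n = 3), and its libraries were all below those of Pcdhb17. These 3 genes took 10.1%, 10.2% and 8.44% of all beta reads. The lowest were Pcdhb21 at 0.272 ± 0.0165 CPM per kb and Pcdhb1 at 0.0127 ± 0.0139 CPM per kb. The length is the counted span, from 2.34 kb (Pcdhb8) to 7.131 kb (Pcdhb19), and the order depends on it. Before division by length Pcdhb21, at a mean of 1.27 CPM, was above Pcdhb2 (1.16 CPM), Pcdhb6 (0.932 CPM) and Pcdhb8 (0.889 CPM).

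The genes between them formed a near-continuous series. In order they were Pcdhb12, Pcdhb14, Pcdhb22, Pcdhb7, Pcdhb13, Pcdhb18, Pcdhb5, Pcdhb3, Pcdhb10, Pcdhb16, Pcdhb19, Pcdhb11, Pcdhb15, Pcdhb4, Pcdhb2, Pcdhb8 and Pcdhb6. Their means ran from 1.42 ± 0.199 to 0.380 ± 0.128 CPM per kb. Of the 21 neighbouring pairs in the whole order, 17 overlapped in their wild-type libraries. The gaps lay below Pcdhb17, Pcdhb3, Pcdhb15 and Pcdhb21.

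Pcdhb1, the first gene of the beta cluster, was nearly silent. It had 4, 2 and 0 gene-table counts in the wild-type Ammon's horn libraries, 4, 9 and 4 in knockout libraries and 9 in dentate gyrus, and it passed no filter. A count of 0 in the third wild-type library allows up to 3 counts, or 0.0495 CPM. Its longest M21 transcript shares no 50-base word with a transcript of another gene.

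**Figure D2:**
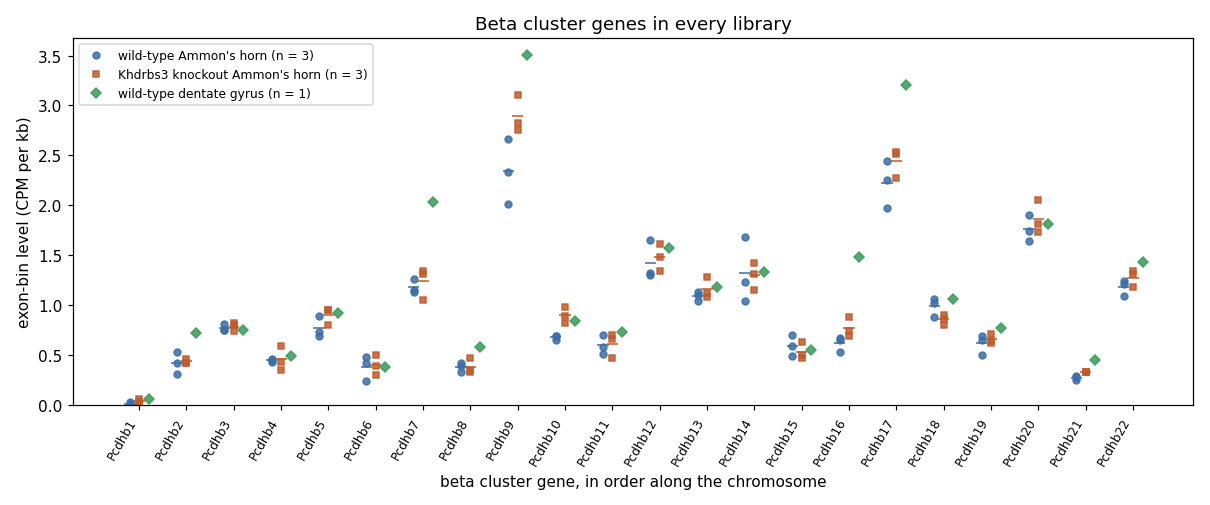
Exon-bin level of each beta gene (y axis, CPM per kb) in each of the 7 libraries, in order along the chromosome; points are libraries and short lines are means of 3. Pcdhb9 and Pcdhb17 are highest in every group, and in Pcdhb16 the dentate gyrus library, at 1.49 CPM per kb, stands above the 6 Ammon's horn libraries.

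Within the alpha record most reads lay at its far end. Bin 13, the last, held 54.9%, 52.6% and 51.4% of the record's exon-bin reads in the wild-type Ammon's horn libraries. Bin 9 held 14.5%, 17.4% and 18.9%, and bins 10, 11 and 12 held means of 4.12%, 5.03% and 9.40%. Bins 1 to 8 were each small. The largest of them were bin 3 at 2.60% ± 0.201 and bin 4 at 2.49% ± 0.198 (SD, n = 3), and the smallest were bin 1 at 0.50% and bin 6 at 0.0312%.

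The gamma record had the same outline. Bin 12 held 59.5%, 58.9% and 54.8% of its reads in the wild-type Ammon's horn libraries. Bin 9 held 13.3%, 14.3% and 16.0%, and bin 7 held 7.64%, 7.44% and 8.95%. In the incomplete rebuild from M21 the seventh, eighth and ninth gamma pieces are the first exons of Pcdhgc3, Pcdhgc4 and Pcdhgc5, and the 3 after them are the constant exons. That these pieces are bins 7 to 12 could not be established. Bins 10 and 11 held means of 4.70% and 5.82%, and bins 1 to 6 and 8 between 0.764% (bin 3) and 1.99% (bin 1). Bins 13 and 14, at the very end, held 0.0907% and no read.

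**Figure D3:**
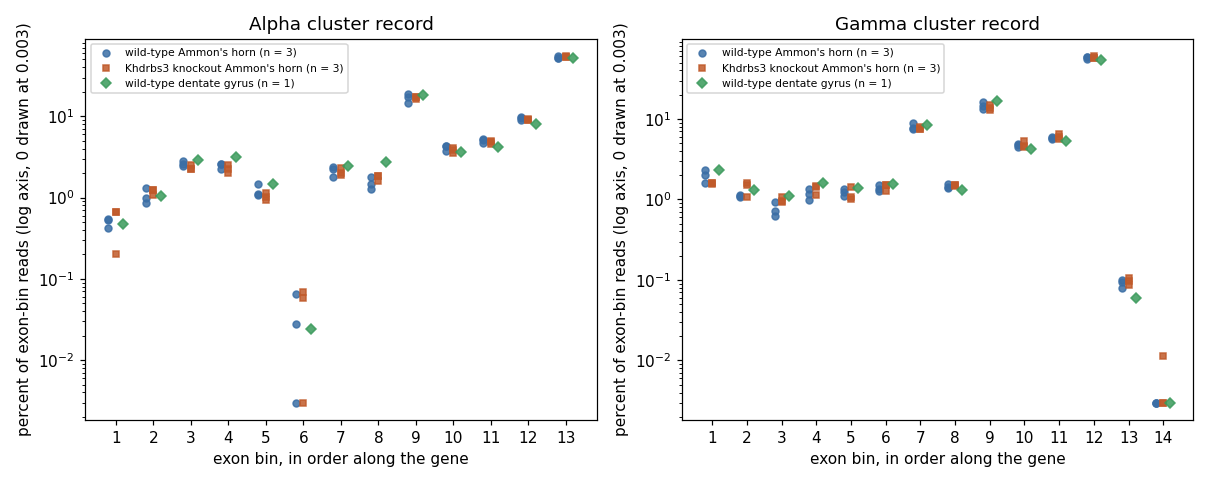
Percent of the record's exon-bin reads (y axis, log scale, with 0 drawn at 0.003) in each bin of the alpha record (left) and the gamma record (right), for each of the 7 libraries. The last bin of alpha and bin 12 of gamma hold over 50% in every library, and the 3 groups lie close together at most bins.

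Loss of Khdrbs3 left no clustered protocadherin called as changed. Of 23 members tested in the gene table, 0 passed an adjusted p of 0.05 with edgeR's quasi-likelihood test, against 0.0745% of all 22830 genes tested. DESeq2 and limma-voom also called 0. At an unadjusted p under 0.05 there were 2, Pcdhb9 (log2 fold change 0.31, SE 0.13) and Pcdhb13 (0.25, SE 0.11), where the share over all genes was 8.38%. The lowest adjusted p was 0.536 with edgeR. The median log2 fold change of the 23 was 0.06, beside 0.00 over all genes, and 16 of the 23 were above 0. Fold changes ran from -0.24 (Pcdhb18) to 0.33 (Pcdhb11).

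The exon bins gave the same count. None of 46 tested bins was called by edgeR, against 0.0673% of all bins tested, and limma-voom called 0. At an unadjusted p under 0.05 there were 6, where the share over all bins was 5.33%. The lowest adjusted p was 0.694, for gamma bin 1. That bin had 8.31, 9.89 and 11.8 CPM in wild type and 8.35, 7.83 and 7.46 CPM in the knockout, a log2 fold change of -0.35 (SE 0.10). The first wild-type library lies within the knockout range, so the groups overlap.

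A few beta bins were higher in all knockout libraries than in any wild-type library without passing the test. These were Pcdhb9, Pcdhb10, Pcdhb16 and Pcdhb21, 4 of 21 tested beta genes, where 10.7% of all bins had groups that do not overlap in either direction. No beta bin lay the other way, but alpha bin 12 did, with 11.6, 11.4 and 11.3 CPM in wild type and 11.1, 11.1 and 10.5 CPM in the knockout. Pcdhb9 had 8.14, 7.14 and 6.16 CPM in wild type and 8.62, 9.50 and 8.40 CPM in the knockout (log2 fold change 0.32, SE 0.10, adjusted p = 0.768 with edgeR). Pcdhb10 had 1.97, 1.85 and 1.97 CPM against 2.79, 2.32 and 2.53 CPM (log2 fold change 0.40, SE 0.15, adjusted p = 0.915 with edgeR). The separation is narrow in Pcdhb9 and wider in Pcdhb10. In the gene table only Pcdhb13 had groups that do not overlap, where 13.2% of all genes did.

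Summed per cluster, the knockout differed little from wild type. The alpha bins summed to 120.4 ± 5.87 CPM in wild type and 118 ± 2.50 CPM in the knockout (log2 fold change -0.02, SE 0.05). The gamma bins summed to 498 ± 9.47 and 486 ± 21.8 CPM (-0.03, SE 0.05). The beta bins summed to 70.1 ± 4.84 and 75.4 ± 0.518 CPM (0.11, SE 0.06; SD over n = 3 each). The beta sums do not overlap, since the lowest knockout library had 74.8 CPM and the highest wild-type library 74.7 CPM. With edgeR the adjusted p was 0.943 for alpha, 0.728 for beta and 0.906 for gamma, and 0.0524% of all summed genes were called.

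Because Khdrbs3 encodes a splicing regulator, the share of each bin within its record was tested too. None of 25 alpha and gamma bins changed its share with edgeR's diffSpliceDGE, against 0.00301% of all bins tested. At an unadjusted p under 0.05 there were 3, where the share over all bins was 1.72%. limma's diffSplice also called 0. On the log2 scale the largest differences in share, neither of which passed, were 0.38 in gamma bin 3 and -0.32 in gamma bin 1: bin 3 held 0.764% ± 0.161 in wild type and 0.984% in the knockout, and bin 1 held 1.99% ± 0.362 and 1.60%. Alpha bin 9 held 17.0% in both groups.

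Single beta genes varied between libraries in the gene table. Pcdhb11 had 5.98, 3.43 and 4.42 CPM in the wild-type gene table and 4.43, 3.999 and 8.99 CPM in the knockout. The third knockout library thus stood at the top there. In the exon bins that library had 2.53 CPM for Pcdhb11, within the wild-type range of 1.85 to 2.54 CPM. The median spread between libraries, as a biological coefficient of variation, was 12.9% for beta genes in the gene table and 10.8% for other genes of the same level. In the exon bins it was 7.13% for beta genes and 7.67% at the same level.

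Several beta genes were higher in the dentate gyrus than in wild-type Ammon's horn. Of 23 members tested in the gene table, edgeR called 6 higher and 0 lower, against 11.2% of all genes higher and 10.9% lower. All 6 are beta genes: Pcdhb6, Pcdhb7, Pcdhb9, Pcdhb16, Pcdhb17 and Pcdhb21. Of the 23 members 22 had a log2 fold change above 0, and their median was 0.43, beside -0.01 over all genes. Of the 6 called, 1 was at least 2-fold higher (Pcdhb16), where 2.22% of all genes tested were both called and at least 2-fold higher. The dentate gyrus group is 1 library, and the fit took its spread from the Ammon's horn groups. In bulk tissue, more cells of a type and more RNA per cell cannot be told apart.

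Exon bins were called higher by edgeR in 9 of 46 tested, and lower in 0, against 7.65% of all bins higher and 7.88% lower. The 9 were Pcdhb2, Pcdhb7, Pcdhb9, Pcdhb16, Pcdhb17 and Pcdhb21, alpha bin 8 and gamma bins 3 and 4. Thus 5 beta genes were called in both counts, and Pcdhb6 and Pcdhb2 in 1 each. Over 21 beta genes the median log2 fold change was 0.29 in the bins and 0.46 in the gene table. The dentate gyrus library lay above all 6 Ammon's horn libraries in 10 of 21 beta genes in the bins, where 26.4% of all bins did, and in 14 of 21 in the gene table, where 28.5% of all genes did.

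**Figure D4:**
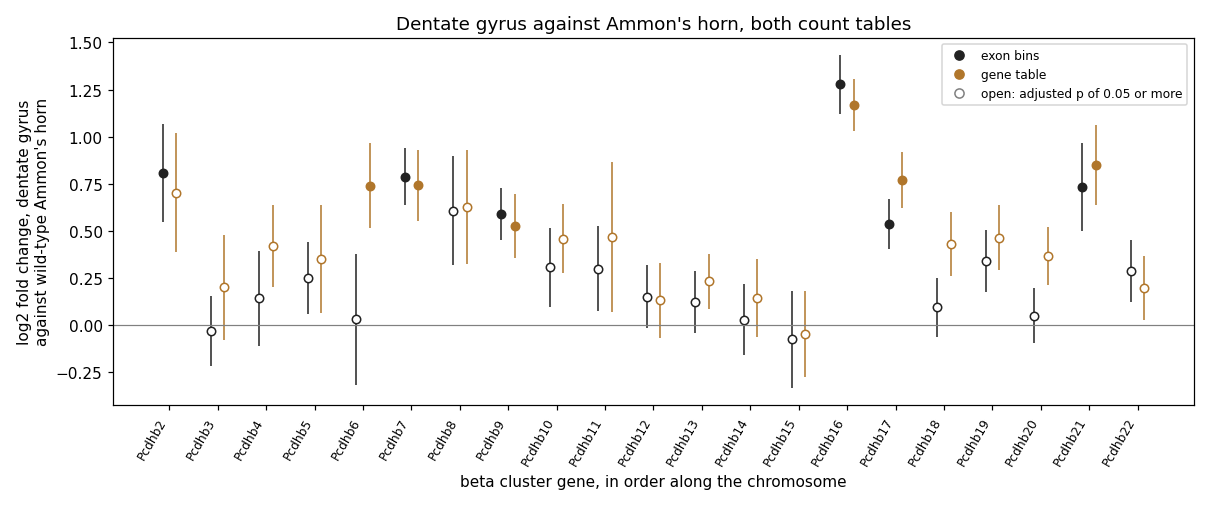
Log2 fold change, dentate gyrus (1 library) against wild-type Ammon's horn (3 libraries), of 21 beta genes in order along the chromosome, in the exon bins (dark) and the gene table (brown); bars are standard errors and filled points have an adjusted p under 0.05 in edgeR. Pcdhb16 is highest in both counts, at 1.28 and 1.17, and Pcdhb6 differs between them, at 0.03 and 0.74.

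Pcdhb16 differed most. Its exon bin had 3.53, 2.77 and 3.44 CPM in wild-type Ammon's horn, 3.88, 3.66 and 4.62 CPM in the knockout and 7.82 CPM in the dentate gyrus. The dentate gyrus value is above every Ammon's horn library (log2 fold change 1.28, SE 0.16, adjusted p = 6.0e-07 with edgeR). In the gene table the fold was 2.24 (log2 1.17, SE 0.14, adjusted p = 2.7e-04 with edgeR). By level per length it moved from place 13 among the beta genes in wild-type Ammon's horn to place 6 in the dentate gyrus. Of its words 2.05% occur elsewhere. The part of shared reads in the Pcdhb16 difference was not tested.

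Pcdhb7 had 4.03, 3.95 and 4.41 CPM in the wild-type bins and 7.13 CPM in the dentate gyrus (log2 fold change 0.79, SE 0.15, adjusted p = 4.3e-04 with edgeR). It moved from place 7 to place 3. The knockout libraries, at 4.72, 4.61 and 3.68 CPM, overlapped wild type. Pcdhb17 had 8.00, 6.45 and 7.35 CPM and 10.5 CPM in the dentate gyrus (0.53, SE 0.13, adjusted p = 0.00529 with edgeR). Pcdhb17 already ranked second in Ammon's horn and did so in the dentate gyrus.

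Pcdhb9, the highest beta gene in both regions, had 10.7 CPM in the dentate gyrus (log2 fold change 0.59, SE 0.14, adjusted p = 0.00287 with edgeR). Its gene-table fold change of 0.53 had an adjusted p of 0.0497 with edgeR. That call was lost in 7 of 11 alternatives, with adjusted p between 0.00386 and 0.0876 over the 11. They include leaving out wild-type library 2 or 3 or any of the knockout libraries. In the exon bins the call held in all 10 alternatives.

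Pcdhb21 was the lowest tested beta gene by level per length. In the gene table its knockout and wild-type groups overlapped (log2 fold change 0.003, SE 0.17). Its exon bin had 1.29, 1.18 and 1.33 CPM in wild type, 1.53, 1.56 and 1.52 CPM in the knockout and 2.10 CPM in the dentate gyrus. All 3 groups are apart, though only the dentate gyrus difference was called (log2 fold change 0.73, SE 0.23, adjusted p = 0.0291 with edgeR). Pcdhb2 had 1.46, 0.847 and 1.16 CPM in wild type and 1.99 CPM in the dentate gyrus (0.81, SE 0.26, adjusted p = 0.0316 with edgeR). Its wild-type spread is wide, and with wild-type libraries alone the adjusted p was 0.0541 with edgeR. Without the second wild-type library 5 of the 46 bins were called, and Pcdhb21 (adjusted p = 0.0696), Pcdhb2 (0.123) and gamma bins 3 (0.0744) and 4 (0.0867) were lost with edgeR.

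Pcdhb6 gave different answers in the 2 counts. In the gene table it had 2.43, 2.67 and 2.09 CPM in wild type and 4.004 CPM in the dentate gyrus (log2 fold change 0.74, SE 0.23, adjusted p = 0.0408 with edgeR). In the exon bins it had 1.19, 1.03 and 0.582 CPM and 0.940 CPM, inside the wild-type range (0.03, SE 0.35). It is also the gene with the highest ratio between the counts, and 7.69% of its words occur elsewhere. The part of shared reads in this difference was not tested. With the first wild-type, the third wild-type or the third knockout library left out, the gene-table adjusted p was 0.0676, 0.0831 and 0.0555 with edgeR.

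Other beta genes did not pass. In the exon bins Pcdhb8 had 0.915, 0.976 and 0.776 CPM in wild type and 1.35 CPM in the dentate gyrus (log2 fold change 0.60, SE 0.29, adjusted p = 0.165 with edgeR). The library stands above the rest, but the reads are few. The lowest values were those of Pcdhb15 (-0.08, SE 0.26) and Pcdhb3 (-0.03, SE 0.19). Pcdhb12, Pcdhb14 and Pcdhb20, all among the 5 highest in Ammon's horn, lay between 0.03 and 0.15 in the exon bins. In the gene table they were at 0.13, 0.14 and 0.37. Beta genes not called in the gene table ran there from -0.05 (Pcdhb15) to 0.70 (Pcdhb2).

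Summed over the cluster, beta bins reached 94.6 CPM in the dentate gyrus against 70.1 ± 4.84 CPM (SD, n = 3) in wild-type Ammon's horn. This is a fold of 1.35 (log2 0.43, SE 0.08, adjusted p = 0.00233 with edgeR), where 14.9% of all summed genes were called higher. Summed from the gene table the log2 fold change was 0.48 (adjusted p = 0.00516 with edgeR). The alpha bins had 119 CPM in the dentate gyrus (log2 -0.02, SE 0.08) and the gamma bins 530.0 CPM (0.09, SE 0.07), and neither was called. The difference between the clusters was not tested.

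Within the multi-exon records a few bins stood out in the dentate gyrus. Alpha bin 8 had 1.56, 1.72 and 2.25 CPM in wild type, 2.28, 2.24 and 1.89 CPM in the knockout and 3.18 CPM in the dentate gyrus (log2 fold change 0.78, SE 0.21, adjusted p = 0.0103 with edgeR). Its share of the alpha reads was 1.27%, 1.47% and 1.79% in wild type and 2.74% in the dentate gyrus. As a change in share it missed the threshold (log2 0.85, adjusted p = 0.0529 with edgeR's diffSpliceDGE). None of 25 bins was called in share, against 0.213% of all bins tested. There were 3 with an unadjusted p under 0.05, where the share over all bins was 3.89%. limma's diffSplice called 1, as edgeR did without the third wild-type library, alpha bin 8 both times.

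Gamma bins 3 and 4 lie among the small early bins of the record. Bin 3 had 4.81, 3.11 and 3.63 CPM in wild type and 5.75 CPM in the dentate gyrus (log2 fold change 0.60, SE 0.18, adjusted p = 0.0179 with edgeR). Bin 4 had 6.95, 4.88 and 5.88 CPM and 8.32 CPM (0.51, SE 0.15, adjusted p = 0.0210 with edgeR). In the knockout, bin 3 had 4.81, 5.21 and 4.52 CPM, which overlaps wild type at the first library. At the far ends, alpha bin 13 had 60.2 CPM in the dentate gyrus against 64.5 CPM in wild type, and gamma bin 12 had 282 CPM against 290.5 CPM.

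Marker genes of some other cells also differed between the regions, where 11.2% of all genes were called higher and 10.9% lower. All 10 oligodendrocyte markers were lower in the dentate gyrus, and their summed level was 1536 CPM against 4384 to 4562 CPM over the wild-type Ammon's horn libraries. All 10 CA1 markers were lower and of 10 granule cell markers 9 were higher and 1 lower. Of 10 interneuron markers 7 were lower and 1 higher, and of 10 astrocyte markers 2 were lower. Of 10 adult neurogenesis markers 6 were higher and 2 lower, with a median log2 fold change of 0.98. Their summed level was lower, at 185 CPM against 266 to 297 CPM over the wild-type Ammon's horn libraries. Within that sum Tubb3 alone had 114 CPM in the dentate gyrus against a mean of 243 CPM. Of 10 microglia markers 4 were lower, and of 10 CA2 and CA3 markers 3 were higher and 3 lower. Of 10 endothelial and mural markers 1 was higher and 2 were lower. Of 12 choroid plexus markers 1 was higher, with a median log2 fold change of 1.51 over the 12. In the Ammon's horn libraries, summed oligodendrocyte markers were lower in the knockout, at 3755 to 4017 CPM. Of these 10, 1 was called lower (Cldn11), where 0.0745% of all genes were called. Sums of CA1, granule cell, adult neurogenesis, microglia, and endothelial and mural markers were also below every wild-type library. Those of astrocyte, interneuron, CA2 and CA3, and choroid plexus markers overlapped. The part of cell composition in the beta differences of either comparison was not tested.

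Genes that act with the clustered protocadherins were counted from 3 lists. Factors of promoter choice and chromatin at the clusters had 20 genes tested, with 0 called in the knockout. In the dentate gyrus 11 were higher and 0 lower, where 11.2% of all genes were higher and 10.9% lower. The list's median log2 fold change was 0.38, beside -0.01 over all genes. They include Ctcf itself (54.7 ± 0.614 to 63.6 CPM, log2 0.22), the cohesin subunits Stag1 (0.44) and Stag2 (0.37), the cohesin loader Nipbl (0.62) and the cohesin regulators Wapal (0.33), Pds5a (0.65) and Pds5b (0.42). The DNA methyltransferase Dnmt3a (0.45), the silencing factors Smchd1 (0.53) and Setdb1 (0.38) and the corepressor Rcor1 (0.47) were the others. The core cohesin genes Rad21 (-0.02), Smc1a (0.05) and Smc3 (0.16) were not called.

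The non-clustered delta protocadherins are single-gene relatives, and 0 of 10 were called in the knockout. Against the same shares of all genes, 3 were higher and 1 lower in the dentate gyrus. Pcdh20 (log2 fold change 1.05), Pcdh8 (0.96) and Pcdh19 (0.49) were higher and Pcdh10 (-0.71) lower. Pcdh20 had 97.6, 86.3 and 113 CPM in wild-type Ammon's horn and 205 CPM in the dentate gyrus. Of 22 intracellular partners and processing enzymes 0 were called in the knockout. Among those called in the dentate gyrus, the kinase Ptk2b (0.44) and the actin-binding Marcks (0.52) were higher and the gamma-secretase subunit Psenen (-0.40) was lower.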

How the data were processed

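Polyadenylated RNA of 7 libraries was measured by RNA-seq. The authors deposited raw counts per gene and raw counts per exon bin, not normalised. The genome mm10 and the tools bedtools 2.17.0, TopHat2 2.0.8b, DESeq2 1.0.19 and Trim Galore 0.3.5 are named without roles, per the submitters' processing notes. Whole tables were fitted with edgeR 4.0.16 in R 4.3.3 (quasi-likelihood F test, TMM, filterByExpr for genes, at least 10 reads in 3 libraries for bins, Benjamini-Hochberg over all features), and only the members are printed. Knockout and wild type were fitted on 6 libraries of Ammon's horn, and the dentate gyrus on all 7 in 3 groups. Bin shares were tested with diffSpliceDGE. Alternatives used RLE scaling, other filters, DESeq2 1.42.0, limma 3.58.1 and left-out libraries. CPM are TMM-scaled over the 7 libraries. Scripts were tested on simulated data. Members and lists were chosen with earlier results of these data known. Named genes are called members and bins, the highest and lowest levels, the largest changes, the C-type genes and called list genes. Levels per length could be given for beta genes, since bin lengths of the other records were not established. Some called list genes are not reported here.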

Additional observations from a re-analysis of the deposited data

How the results depend on the processing

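No paired analysis was possible because the labels give the libraries no shared replicate numbers. The knockout counts of 0 members, 0 bins and 0 bin shares stayed at 0 under every alternative run. The dentate gyrus count of 6 members ranged from 4 to 6, with 4 without the third knockout library, and that of 9 bins from 5 to 11, with 5 without the second wild-type library. Of the members, Pcdhb7, Pcdhb16, Pcdhb17 and Pcdhb21 kept the call in every alternative. Without the third wild-type library Pcdhb18 and Pcdhb19 were called in place of Pcdhb6 and Pcdhb9. Without the first, Pcdhb2 took the place of Pcdhb6. The count of bin shares rose from 0 to 1 with limma's diffSplice and ranged from 0 to 1 over left-out libraries. The beta sum stayed higher in the dentate gyrus in every alternative. Of 156 alternative values of single called members, 15 lost the call and none changed direction. Fits with wild-type libraries alone for bins and sums, and cluster sums from the gene table, were added after seeing the data. Few reads limit Pcdhb1, Pcdhb6 and Pcdhb8.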
